A study of Mus with 6 samples.

Results

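ATF4 and 9 genes known as its targets in the integrated stress response were followed in liver samples of mice with alcoholic steatohepatitis, in which ethanol brings on fatty and inflamed liver. The 10 genes, Atf4, Atf3, Ddit3, Trib3, Asns, Psat1, Phgdh, Chac1, Sesn2 and Ddit4, were found by their symbols among the 48882 genes of the expression table. RNA came from 3 liver samples of Fabp4 knockout mice (FABP4-/-, here KO) and 3 of wild type littermates (WT). The mice of both groups had been fed a Lieber-DeCarli liquid diet with ethanol for 8 weeks and then given 1 ethanol binge, so neither group is free of ethanol. The sources used here do not give the age or sex of the mice, how the allele was made or in which cells it is lost. The 10 genes were selected on known function with the TPM of the KO and WT libraries already known, and Asns was chosen by its low TPM in the KO libraries. Their KO and WT values are therefore given as a description, with no test.

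Levels are in TPM (a share of all transcripts, corrected for transcript length), recovered from deposited log2 values that look quantile normalized across libraries. Differences are KO minus WT on the log2(TPM + 1) scale, and SE is the standard error of that difference. Fabp4 itself had no value, taken as 0, in KO replicates 1, 2 and 3, and was at 14.7, 8.15 and 19.96 TPM in WT replicates 1, 2 and 3. Hepatocyte markers were abundant in every library. The 9 other than Alb summed to between 20875 and 25047 TPM in KO and to between 21717 and 27073 TPM in WT. Of the 14155 genes abundant enough to test, 1 passed an adjusted p of 0.05 in limma (0.00706%), and that gene was Fabp4. WT replicate 2 lay apart on the first principal component of all genes (-38.1, against -2.50 to 22.3 for the other libraries) and KO replicate 1 on the second (-30.8, against -5.92 to 21.8).

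ATF4 is a transcription factor made when the translation initiation factor eIF2 is phosphorylated, which happens when amino acids run short (through the kinase GCN2), when proteins misfold in the endoplasmic reticulum (PERK), in viral infection (PKR) or in heme and mitochondrial stress (HRI). General translation then slows while Atf4 mRNA is translated more, so the level of Atf4 mRNA alone does not give the amount of ATF4 protein. Its targets make non-essential amino acids, charge and import amino acids, restrain growth signalling through mTORC1 and, when stress lasts, favour cell death.

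The 10 genes did not move as a block. In KO against WT, 5 had a log2 difference below 0 and 5 above it, with a median of -0.04, beside a median of 0.04 over all 14155 genes tested. Asns, chosen by its low KO level, had the largest difference of the 10, and the other 9 all lay within 1 log2 unit of 0. That bound rests on the 1 added to TPM. With 0.1 added instead, Asns was at -2.03, Chac1 at -1.66 and Atf3 at 1.08. The KO and WT libraries did not overlap for 2 of the 10 genes, Asns (lower in KO) and Atf3 (higher in KO). Over all genes tested 13.3% did not overlap, 4.38% lower and 8.94% higher in KO. All 10 genes passed the abundance filter, a mean of at least 0.5 TPM over the 6 libraries. The libraries come from whole liver, in which fewer cells of a type and less RNA per cell cannot be told apart.

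**Figure D1:**
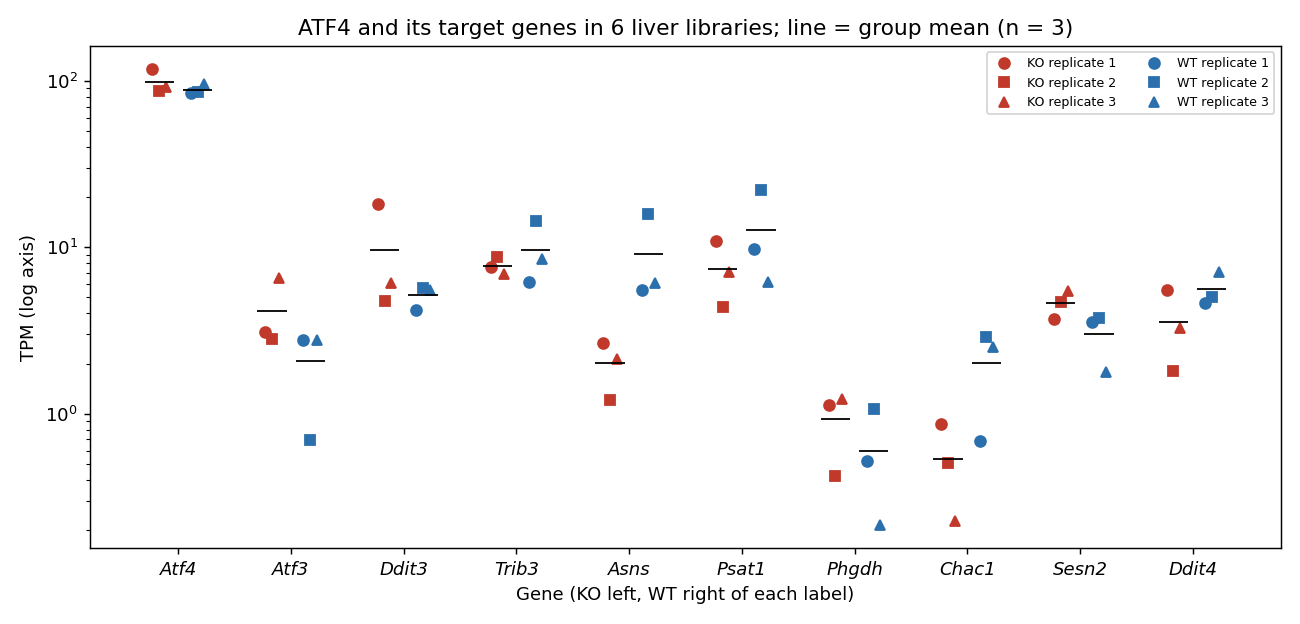
Level of Atf4 and 9 target genes in TPM on a log axis, 1 point per library, KO in red to the left and WT in blue to the right of each gene, with marker shapes for replicates and a line at the group mean (n = 3). Asns lies at 1.20 to 2.67 TPM in KO and at 5.50 to 15.8 TPM in WT, while Atf4 lies at 87.2 to 118 TPM in KO and at 84.2 to 95.6 TPM in WT.

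Asns (mm10 chromosome 6, 7675165 to 7693182, minus strand) encodes asparagine synthetase, which makes asparagine from aspartate and glutamine and is a standard readout of ATF4 activity. It was at 2.67, 1.20 and 2.14 TPM in KO replicates 1, 2 and 3, against 5.50, 15.8 and 6.12 TPM in WT replicates 1, 2 and 3. Every KO library lay below every WT library, and WT replicate 2 stood well above the other WT libraries. The group means were 2.005 ± 0.746 TPM in KO and 9.14 ± 5.78 TPM in WT (SD, n = 3 each), a ratio of 0.219. The log2 difference was -1.64 (SE 0.37), the 13th lowest of the 14155 genes, a rank that reflects the choice of Asns by its low KO level. Without WT replicate 2 it was -1.21 (SE 0.24), and without both WT replicate 2 and KO replicate 1 it was -1.37 (SE 0.23). Set against the Atf4 transcript of the same library, Asns amounted to 2.26%, 1.38% and 2.33% in KO and to 6.53%, 18.3% and 6.40% in WT.

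Transcripts of the exocrine pancreas, a tissue rich in Asns that lies next to the liver, appeared in some WT libraries. Prss2, Cpa1, Pnlip and Ctrb1, which encode digestive enzymes or their precursors, had no value in any KO library or in WT replicate 1. In WT replicate 2 they were at 0.230, 0.0611, 0.193 and 1.67 TPM, and in WT replicate 3 at 1.08, 0.253, 0.0659 and 0.783 TPM. Of the other pancreas markers on the list of 6, Amy2a5 had no value in any library and Cela1 was at 9.44 to 14.1 TPM in KO and at 11.5 to 16.99 TPM in WT. The list summed to between 9.44 and 14.1 TPM in KO and to between 11.5 and 19.2 TPM in WT. In KO and in WT replicate 1 the whole sum was Cela1, and in WT replicates 2 and 3 most of it was. Asns was at 5.50 TPM in WT replicate 1, in which those 4 genes had no value. The part of pancreas RNA in the Asns values was not tested.

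Atf4 (chromosome 15, 80255184 to 80257545, plus strand) was the most abundant of the 10 genes. It was at 118, 87.2 and 91.8 TPM in KO and at 84.2, 86.2 and 95.6 TPM in WT. The groups overlapped, and the highest library exceeded the lowest by a factor of 1.40, the smallest span among the 10 genes. The log2 difference was 0.15 (SE 0.15).

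Atf3 (chromosome 1, 191170296 to 191183333, minus strand) encodes a stress-induced factor of the same family that can repress transcription. It was at 3.11, 2.80 and 6.54 TPM in KO and at 2.78, 0.698 and 2.76 TPM in WT. The groups were only just apart, with the lowest KO library at 2.80 TPM and the highest WT library at 2.78 TPM. KO replicate 3 was the highest and WT replicate 2 the lowest of the 6. The log2 difference was 0.76 (SE 0.38), and 0.38 without WT replicate 2.

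Ddit3 (chromosome 10, 127290793 to 127296291, plus strand) encodes CHOP, the factor that links lasting endoplasmic reticulum stress to cell death. It was at 18.1, 4.77 and 6.06 TPM in KO and at 4.22, 5.67 and 5.56 TPM in WT. A single library, KO replicate 1, was high, and the other 5 lay between 4.22 and 6.06 TPM. The log2 difference of 0.59 (SE 0.41) became 0.06 (SE 0.18) without KO replicate 1. The gene's annotated end overlaps that of Mars, on the opposite strand, by 71 bases, and the sources used here do not say whether reads were assigned by strand. Mars was at 15.6 to 19.8 TPM in KO and at 16.3 to 21.97 TPM in WT. The part of Mars reads in the Ddit3 values was not tested.

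Trib3 (chromosome 2, 152337425 to 152344060, minus strand) encodes a pseudokinase that binds AKT and feeds back on ATF4. It was at 7.56, 8.73 and 6.90 TPM in KO and at 6.19, 14.3 and 8.55 TPM in WT. The KO libraries all lay inside the WT range, with WT replicate 2 on top. The log2 difference was -0.23 (SE 0.26), and it turned to 0.07 without WT replicate 2.

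The serine synthesis enzymes Psat1 and Phgdh each overlapped between KO and WT. Psat1 (chromosome 19, 15905123 to 15925059, minus strand), the aminotransferase of that pathway, was at 10.9, 4.35 and 7.05 TPM in KO and at 9.70, 22.1 and 6.21 TPM in WT. The groups overlapped, and WT replicate 2 was again the highest library. The log2 difference of -0.60 (SE 0.44) became -0.13 (SE 0.35) without WT replicate 2, -0.31 without KO replicate 2 and -0.97 without WT replicate 3. A pseudogene of Psat1 had values of at most 0.408 TPM, against at least 4.35 TPM for Psat1. Phgdh (chromosome 3, 98313171 to 98339969, minus strand), the dehydrogenase that opens the pathway, was scarce. It was at 1.13, 0.422 and 1.23 TPM in KO and at 0.519, 1.07 and 0.213 TPM in WT, which overlapped (log2 difference 0.27, SE 0.26). None of the 17 annotated Phgdh pseudogenes had a value.

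Chac1 (chromosome 2, 119351242 to 119354326, plus strand) encodes an enzyme that breaks down glutathione. It was at 0.863, 0.506 and 0.228 TPM in KO and at 0.688, 2.87 and 2.50 TPM in WT. WT replicates 2 and 3 were high, while WT replicate 1 lay between KO replicates 1 and 2. The group means were 0.532 ± 0.319 TPM in KO and 2.02 ± 1.17 TPM in WT (SD, n = 3 each). The log2 difference was -0.91 (SE 0.33). It was -0.16 without WT replicates 2 and 3, a setting chosen after seeing the data that leaves WT replicate 1 alone. WT replicates 2 and 3 also held the pancreas transcripts. The part of pancreas RNA in the Chac1 values was not tested. At these low levels the pseudocount of 1 compresses the difference, which was -1.66 (SE 0.61) with a pseudocount of 0.1.

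The inhibitors of mTORC1 signalling, Sesn2 and Ddit4, pointed in opposite directions. Sesn2 (chromosome 4, 132492804 to 132510456, minus strand) encodes sestrin 2, a leucine sensor that restrains mTORC1. It was at 3.71, 4.69 and 5.44 TPM in KO and at 3.55, 3.73 and 1.77 TPM in WT. Only the lowest KO and the highest WT library crossed, at 3.71 and 3.73 TPM, and the log2 difference was 0.51 (SE 0.24), or 0.26 without WT replicate 3. Ddit4 (chromosome 10, 59949675 to 59951770, minus strand) encodes REDD1, which acts on mTORC1 through the TSC complex and also responds to hypoxia and glucocorticoids. It was at 5.57, 1.81 and 3.26 TPM in KO and at 4.62, 5.04 and 7.08 TPM in WT. KO replicate 1 lay among the WT libraries, and the log2 difference of -0.60 (SE 0.30) was -0.91 without KO replicate 1 and -0.30 without KO replicate 2.

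By the mean over all 6 libraries the genes ranked Atf4 (93.9 TPM), Psat1 (10.1), Trib3 (8.71), Ddit3 (7.39), Asns (5.57), Ddit4 (4.56), Sesn2 (3.82), Atf3 (3.11), Chac1 (1.28) and Phgdh (0.763). In both groups Atf4 lay above Psat1 in every library. Of the other neighbours in this order, Ddit3 and Asns were separate in KO (4.77 to 18.1 TPM against 1.20 to 2.67 TPM), where Atf3 and Chac1 were separate too. In WT, Trib3 was separate from Ddit3 and Ddit4 from Sesn2. All other neighbours overlapped within their group. Asns lay below Ddit3 in each KO library, and in WT its range of 5.50 to 15.8 TPM overlapped that of Ddit3, at 4.22 to 5.67 TPM.

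The library with the highest level differed from gene to gene. WT replicate 2 was the highest library for 4 of the 10 (Asns, Trib3, Psat1 and Chac1), KO replicate 3 for 3 (Atf3, Sesn2 and Phgdh), KO replicate 1 for 2 (Atf4 and Ddit3) and WT replicate 3 for Ddit4. Over all genes tested, 19.9% were highest in WT replicate 2, 20.5% in KO replicate 3 and 22.2% in KO replicate 1. KO replicate 2 was the lowest library for 3 genes (Asns, Psat1 and Ddit4), and WT replicate 1 was the lowest for 3 as well (Atf4, Ddit3 and Trib3). The share of all genes lowest in each library was not computed. In WT replicate 2, Atf4 was at 86.2 TPM and Atf3 had its lowest value.

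**Figure D2:**
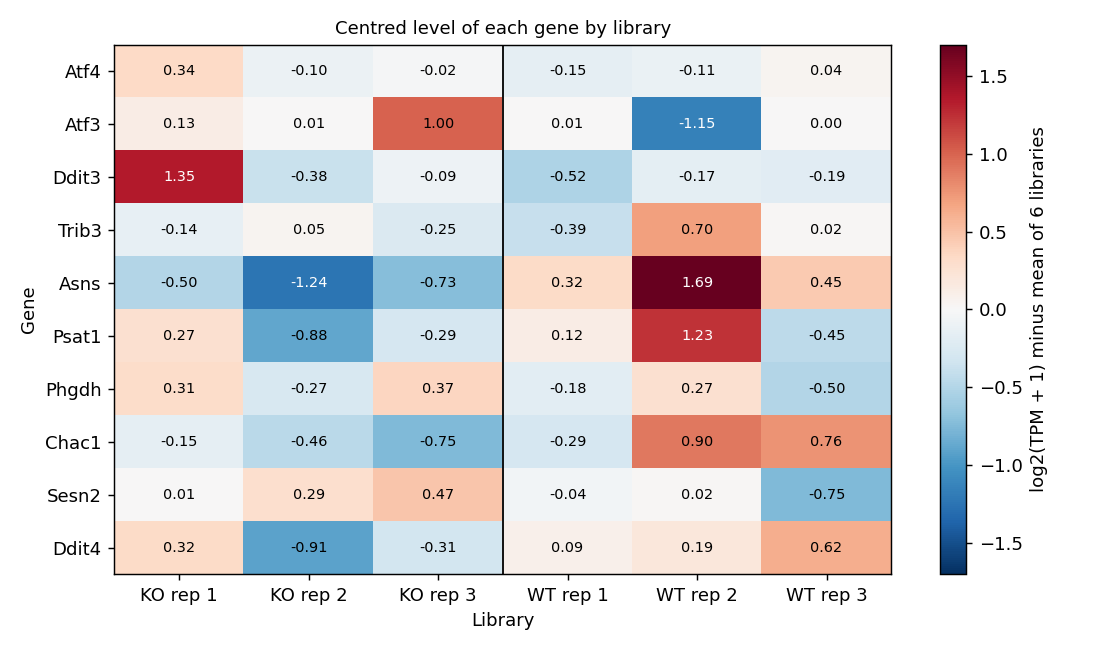
Centred level of each of the 10 genes, on the log2(TPM + 1) scale with the mean of all 6 libraries subtracted, with the KO libraries left and the WT libraries right of the line. Asns runs from -1.24 in KO replicate 2 to 1.69 in WT replicate 2, Ddit3 stands at 1.35 in KO replicate 1 and Atf3 at 1.0 in KO replicate 3.

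Cell type markers also varied between libraries. The summed level of 10 macrophage and monocyte markers was 322, 362 and 721 TPM in KO and 405, 142 and 204 TPM in WT, so that WT replicate 2 was the lowest and KO replicate 3 the highest. All 10 had log2 differences above 0. The 8 endothelial markers summed to between 141 and 165 TPM in KO and to between 101 and 135 TPM in WT, and all 8 had differences above 0, as had all 8 stellate cell and fibroblast markers (292 to 369 TPM in KO, 248 to 307 TPM in WT). The 8 neutrophil markers summed to between 15.8 and 20.6 TPM in KO and to between 20.9 and 50.1 TPM in WT, with all 4 that could be tested below 0. Ly6g and Mpo had no value in any KO library. The 8 lymphocyte markers summed to between 7.09 and 10.5 TPM in KO and to between 5.25 and 10.1 TPM in WT, with 5 of the 6 tested above 0. Cholangiocyte markers summed to between 48.9 and 75.6 TPM in KO and to between 45.4 and 80.7 TPM in WT, with all 5 above 0, and of the 9 hepatocyte markers 4 were above and 5 below 0. Over all genes tested 42.6% had a log2 difference below 0. The part of cell composition in the values of the 10 genes was not tested.

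Around the 10 genes, 120 further genes of the pathway were taken in 9 lists, and 115 were abundant enough to test. The lists were fixed by function, with earlier results of these data known. None passed the adjusted threshold (limma, Benjamini-Hochberg over all 14155 genes; lowest adjusted p 0.522). At an unadjusted p under 0.05 there were 9 of the 115, 6 higher and 3 lower in KO, beside 8.03% of all genes tested (5.12% higher and 2.91% lower in KO). The groups did not overlap for 8.70% of the 115, beside the 13.3% of all genes tested, and the median log2 difference was -0.01.

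**Figure D3:**
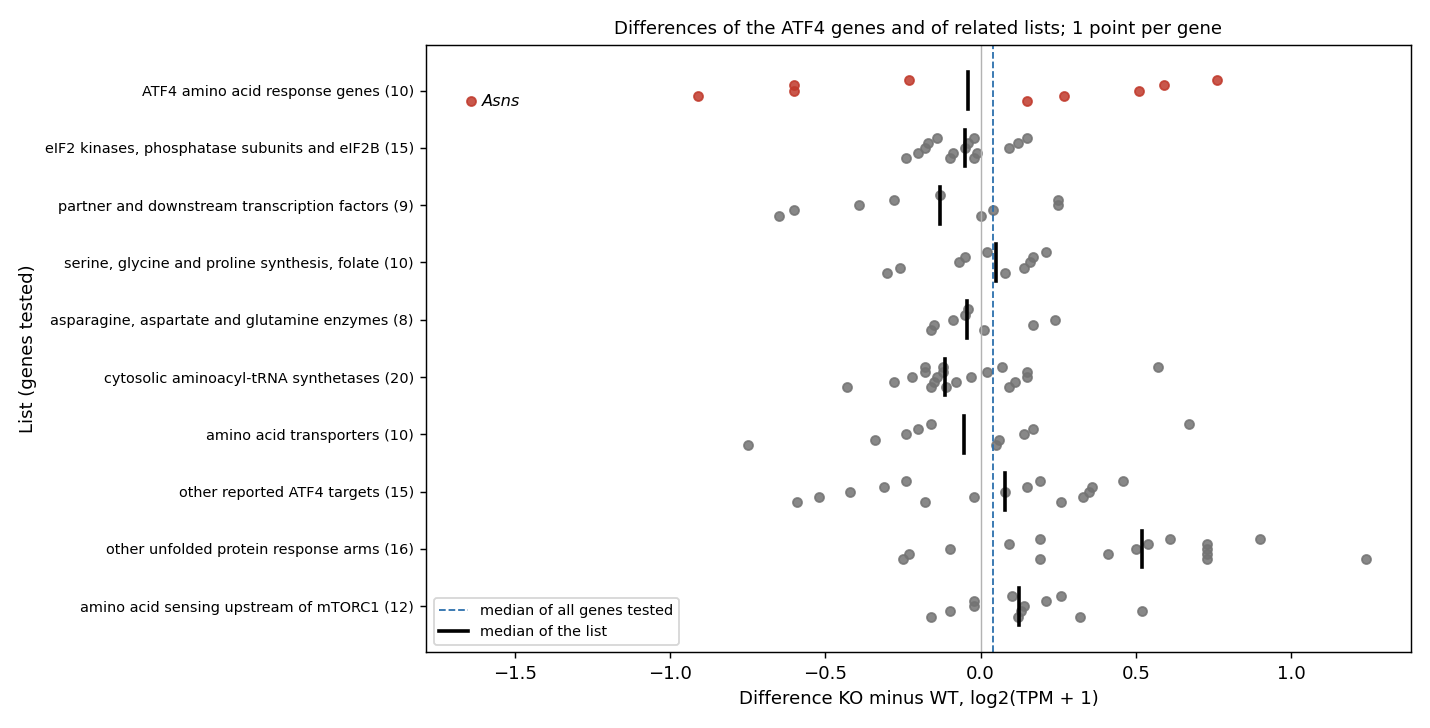
Difference KO minus WT on the log2(TPM + 1) scale for the 10 ATF4 genes (red) and for the genes of 9 related lists (grey), 1 point per gene, with a black bar at each list's median and a dashed line at the median of all genes tested (0.04). Asns, chosen by its low KO level, lies at -1.64. The genes of the related lists, fixed by function with earlier results of these data known, range from -0.75 to 1.24. The other unfolded protein response genes have a median of 0.52.

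Genes of the machinery that senses stress upstream of ATF4 had small differences. The 15 genes of the eIF2 kinases, their helpers, the eIF2 phosphatase subunits and the exchange factor eIF2B had log2 differences between -0.24 and 0.15 and a median of -0.05, with 3 above and 12 below 0. Gcn1, matched as Gcn1l1, the activator of the amino acid sensor GCN2, had the largest difference (-0.24, SE 0.18; 11.8 TPM in KO and 14.4 TPM in WT on average). The PERK gene Eif2ak3 (-0.18, SE 0.24), Eif2b4 (-0.20, SE 0.17) and Eif2b2 (-0.17, SE 0.17) came next. None of the 15 had an unadjusted limma p under 0.05.

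Transcription factors that partner with ATF4 or lie downstream of it had a median log2 difference of -0.13, with 3 of 9 above and 6 below 0. Klf9, a Krüppel-like factor that also responds to glucocorticoids, was at 31.95, 35.2 and 28.6 TPM in KO and at 57.2, 52.6 and 42.7 TPM in WT. Its groups did not overlap (log2 difference -0.65, SE 0.15), and it did not pass (limma adjusted p 0.522). Cebpb (-0.60, SE 0.41), Maff (-0.39, SE 0.47) and Nupr1 (-0.28, SE 0.36) overlapped between groups. For Maff the difference was 0.12 without WT replicate 1, which had 19.1 TPM.

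Enzymes of the same metabolic routes as Asns, Psat1 and Phgdh had log2 differences between -0.30 and 0.24. The 8 enzymes of asparagine, aspartate and glutamine metabolism had log2 differences between -0.16 and 0.24. Asrgl1, an asparaginase, which turns asparagine back into aspartate, was at 11.2, 8.71 and 10.1 TPM in KO and at 8.63, 16.9 and 9.72 TPM in WT (-0.16, SE 0.24). Gls2 (0.24, SE 0.28) and Asl (0.17, SE 0.22) were above 0, and Got1 (-0.15, SE 0.34) was below it. The 10 genes of serine, glycine and proline synthesis and of mitochondrial and cytosolic folate steps lay between -0.30 and 0.21, with 6 above and 4 below 0. Pycr1 (-0.30, SE 0.25), which closes proline synthesis, and Mthfd2 (-0.26, SE 0.22), a mitochondrial folate enzyme induced by ATF4, were below 0. Shmt1 (0.21, SE 0.17) and Mthfd1 (0.17, SE 0.15) were above 0. No gene of either list had an unadjusted limma p under 0.05.

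The 20 cytosolic aminoacyl-tRNA synthetases, which charge tRNAs and of which many are ATF4 targets, had a median log2 difference of -0.11, with 7 above and 13 below 0. Cars, for cysteine, had the largest difference of the 20, at 11.8, 11.3 and 10.8 TPM in KO and at 6.95, 6.30 and 8.74 TPM in WT. Its groups did not overlap (0.57, SE 0.14; limma adjusted p 0.522). Eprs (-0.43, SE 0.21), Gars (-0.28, SE 0.29) and Lars (-0.22, SE 0.22) were below 0. Of the 20 synthetases, 16 were highest in WT replicate 2, beside 19.9% of all genes tested, and the other 4, Cars, Farsa, Sars and Yars, in KO replicate 1. Gars was at 61.9, 38.6 and 46.9 TPM in KO and at 42.4, 91.1 and 51.8 TPM in WT, with its highest value in the library where Asns and Psat1 were highest too. The mean centred level of the 20 was 0.08, -0.12 and -0.03 in KO and -0.10, 0.34 and -0.16 in WT.

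Amino acid transporters split evenly, 5 above and 5 below 0 among the 10 that could be tested. Slc7a5, the light chain of the large neutral amino acid transporter, was at 1.43, 1.73 and 1.83 TPM in KO and at 0.699, 0.966 and 0.397 TPM in WT (0.67, SE 0.18; limma adjusted p 0.522). Slc43a1, another carrier of large neutral amino acids, was at 1.21, 0.481 and 0.730 TPM in KO and at 1.55, 1.80 and 2.80 TPM in WT (-0.75, SE 0.22; limma adjusted p 0.536). For each of the pair the groups did not overlap, in opposite directions and at low levels. Slc38a3 (-0.34, SE 0.21) and Slc38a4 (-0.24, SE 0.16), glutamine and neutral amino acid carriers of hepatocytes, overlapped. Slc7a11 and Slc7a1 fell under the abundance filter.

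Of 18 genes reported as ATF4 targets elsewhere, 15 were abundant enough to test, with 8 above and 7 below 0. The rest fell under the abundance filter. Fgf21, a liver hormone of the fasting and amino acid response, was at 12.4, 5.65 and 7.29 TPM in KO and at 12.5, 23.7 and 6.50 TPM in WT. Its groups overlapped and its highest library was WT replicate 2 (-0.59, SE 0.43; -0.15 without WT replicate 2 and -1.01 without WT replicate 3). Gdf15, a stress hormone, was at 30.1, 32.1 and 53.7 TPM in KO and at 60.9, 24.2 and 104.9 TPM in WT (-0.52, SE 0.49), lowest in WT replicate 2. Its difference was -1.08 without WT replicate 2 and -0.04 without WT replicate 3. Map1lc3b, of the autophagosome membrane, averaged 82.8 TPM in KO and 111 TPM in WT (-0.42, SE 0.12; limma adjusted p 0.530). Stbd1, which tethers glycogen to membranes, averaged 95.3 TPM in KO and 69.4 TPM in WT (0.46, SE 0.14; limma adjusted p 0.536). The groups did not overlap for either.

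The other arms of the unfolded protein response, run by ATF6 and by IRE1 and XBP1, had the highest median of the 9 lists, at 0.52, with 13 of 16 genes above 0. No member passed the adjusted threshold, and 2 had an unadjusted limma p under 0.05, both higher in KO. No gene of the list had groups that did not overlap. The endoplasmic reticulum chaperone Hsp90b1 was at 1580.4, 869.7 and 1703 TPM in KO and at 876, 833 and 696 TPM in WT (0.73, SE 0.26). Sdf2l1, an ATF6 target, was at 87.5, 14.3 and 51.8 TPM in KO and at 14.3, 28.5 and 11.1 TPM in WT (1.24, SE 0.62). Creld2 (0.90, SE 0.59) and Manf (0.73, SE 0.51) had the same shape, high in KO replicates 1 and 3 and low in KO replicate 2. Without KO replicate 1 the differences were 0.69 for Sdf2l1, 0.38 for Creld2 and 0.32 for Manf, and without KO replicate 2 they were 1.96, 1.62 and 1.26 in the same order. The mean centred level of the list was 0.54, -0.33 and 0.45 in KO and -0.29, 0.14 and -0.51 in WT. KO replicate 1, the highest library for Ddit3, had the highest mean of the list. Asns, chosen by its low KO level, was at 2.67 TPM in it, above KO replicates 2 and 3 (1.20 and 2.14 TPM).

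**Figure D4:**
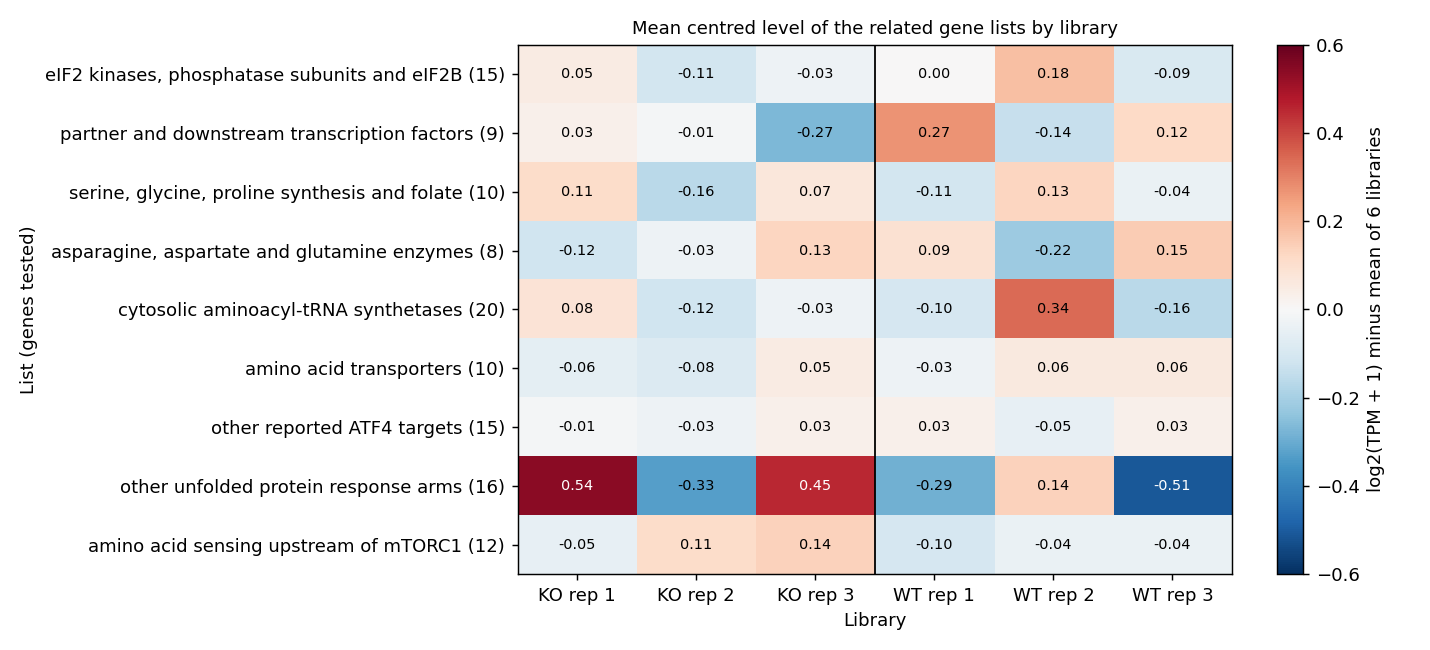
Mean centred level of the genes of each related list by library, on the log2(TPM + 1) scale with each gene's own mean subtracted, with KO left and WT right of the line and the number of genes tested in brackets. The unfolded protein response list reaches 0.54 and 0.45 in KO replicates 1 and 3 and -0.33 in KO replicate 2, and the synthetases reach 0.34 in WT replicate 2.

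Genes that act upstream of mTORC1, among them amino acid sensors, had a median log2 difference of 0.12, with 8 of 12 above 0. Sesn2 and Ddit4 act on the same pathway. Ddit4l, the paralog of Ddit4, was at 1.31, 1.62 and 1.12 TPM in KO and at 0.862, 0.569 and 0.482 TPM in WT. Its groups did not overlap, and its difference ran the other way from that of Ddit4 (0.52, SE 0.17; limma adjusted p 0.538). Rragc, a Rag GTPase, averaged 34.8 TPM in KO and 28.8 TPM in WT (0.26, SE 0.12), also without overlap. The arginine sensor gene Castor1 and its paralog Castor2, matched as Gatsl3 and Gatsl2, had differences of 0.32 (SE 0.23) and 0.21 (SE 0.18).

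The genes whose profile over the 6 libraries came nearest to that of Asns were sought among 10853 named genes with a mean of at least 1 TPM. Nearness was the mean absolute distance between centred log2(TPM + 1) profiles. Asns was chosen by its low KO level, so a profile near it is low in KO through that choice. The levels and ranks below are therefore a description, not separate evidence of a difference between KO and WT. The nearest 5 were Onecut1, a hepatic transcription factor (distance 0.244), the sulfotransferase gene Sult3a1 (0.246), Gadd45g, a growth arrest gene (0.287), Sqle, squalene epoxidase of cholesterol synthesis (0.295), and Gnat1, a G protein subunit known from rod photoreceptors (0.306). Onecut1 was at 7.27, 5.92 and 6.89 TPM in KO and at 12.9, 22.6 and 14.3 TPM in WT. Sult3a1 was at 3.57, 1.41 and 2.98 TPM in KO and at 4.46, 17.6 and 11.8 TPM in WT. Of the 8 other ATF4 genes with a mean of at least 1 TPM, which leaves out Phgdh, Chac1 came nearest to Asns (0.478, rank 54 of the 10853), followed by Psat1 (0.523, rank 78) and Ddit4 (0.576, rank 153). Atf3 (1.20) was the farthest of the 8.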

How the data were processed

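Total RNA from flash-frozen liver was extracted with TRIzol and sequenced on a HiSeq instrument, per the labels' protocols. FastQC, Trimmomatic and mm10 are named in the submitters' processing notes. The sources used here do not give the aligner, quantifier, annotation or strandedness. The deposited values are in columns named TPM, per the file headers, but their scale is log2, since some are below 0 and raising 2 to them gives column sums of 983800 to 1018118. All 6 columns share a maximum of 16.59 and a median of 1.07, as quantile normalization leaves, so a shift of all genes cannot be seen. The deposited gene lengths were not used in a test. Values were turned back to TPM, with a blank taken as 0. TPM keeps no depth, so the reads behind a value are unknown and precision rests on 3 libraries per group. Nothing in the labels says that each library is a separate mouse, and the spread may be partly technical.

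Genes with a mean of at least 0.5 TPM (14155) were fitted on log2(TPM + 1) with limma 3.58.1 in R 4.3.3 (two-sided, genotype the single term, eBayes with trend, Benjamini-Hochberg over all genes, threshold 0.05). The design assumed TPM, which the back-transformation gave. The fit was tested on simulated data. Of 193 list genes, 3 were matched by an older symbol through the RefSeq gene table of GRCm38.p6. The genes followed, the lists and the tests were chosen with earlier results of these data known. The text names Fabp4, the 10 genes, up to 4 genes per related list with the largest absolute difference, and the 5 profiles nearest to Asns; Mars, Farsa, Sars and Yars were chosen after their values were seen. No sequence was used, and the planned promoter search was not run.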

Additional observations from a re-analysis of the deposited data

How the results depend on the processing

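Over 17 alternatives, 0 related genes passed the adjusted threshold in any of them. The number of genes past the threshold, 1 in the fit described, was 0 with the deposited log2 values, where Fabp4, with no value in KO, could not be fitted, 0 under a replicate block, 0 when no filter was applied, and 0 to 2 when 1 library was left out. Same-numbered KO and WT libraries did not deviate together (correlations of -0.261, -0.265 and -0.049). That shows no shared shift by number, and it cannot tell whether the samples were paired in another way. The Asns difference lay between -1.90 and -1.21 when 1 library was left out. It was -1.14 without WT replicates 2 and 3, where Trib3 was at 0.28. That setting was chosen after seeing the data and leaves 1 WT library. Chac1 was at -1.88 and Phgdh at 0.77 (SE 0.65) on the deposited log2 values. Medians of all genes moved from 0.038 to 0.004 with median scaling, and no sign of the 10 genes changed with scaling. The deposited columns already shared a median and a maximum, so scaling could move the differences little. That outcome was largely fixed in advance. Related genes crossed 0 when 1 library was left out: Eif2ak3 (-0.35 to 0.02), Got1 (-0.42 to 0.18), Maff (-0.92 to 0.12), Asrgl1 (-0.34 to 0.11), Gls2 (-0.06 to 0.42), Asl (-0.08 to 0.31), Gars (-0.50 to 0.04) and Lars (-0.40 to 0.04). Without WT replicate 2 and KO replicate 1, Asrgl1 was at 0.03, Asl at -0.03 and Lars at 0.01. Without WT replicates 2 and 3, Nupr1 was at 0.03, Pycr1 at 0.07, Asrgl1 at 0.19, Got1 at 0.01, Gls2 at -0.12, Asl at -0.11 and Gars at 0.18. The cause was not tested. Among the fits that left out 1 library, Fabp4 passed only in the fit without WT replicate 2. Of the 165 values of the 10 genes in these alternatives, 160 moved by less than the spread between replicates. Much of that count was fixed in advance. With 3 libraries per group, leaving out 1 cannot move a difference that far. Changing only the filter or the trend, or adding the replicate block, leaves the difference as it was. Depth is unknown, and Phgdh and Chac1, near 1 TPM, are the least certain levels.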

Other observations

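The ratio of Psat1 to Phgdh, which catalyse successive steps of serine synthesis, was looked at after both sets of values were seen. Within a library it was 9.68, 10.3 and 5.75 in KO and 18.7, 20.7 and 29.2 in WT, without overlap, although each gene alone overlapped between the groups. The share of other gene pairs whose ratios separate in this way was not computed, and 13.3% of single genes tested did not overlap. Phgdh is scarce, and the largest ratio, in WT replicate 3, rests on a Phgdh level of 0.213 TPM. Chac1 amounted to 0.731%, 0.581% and 0.248% of Atf4 in KO and to 0.816%, 3.33% and 2.61% in WT, and Trib3 to 6.39%, 10.01% and 7.51% in KO and 7.35%, 16.6% and 8.94% in WT.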
